A study of Mus musculus with 6 samples.

Results

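The genes described here encode 2 inhibitors of NF-kB (Nfkbia and Nfkbib), 3 NF-kB subunits (Nfkb2, Rel and Relb), an adaptor that restrains the pathway (Tnip1) and a regulatory subunit of its kinase (Ikbkg). They were chosen as every probe that the platform's probe table assigns to 1 of these 7 symbols, which gave 7 probes, 1 for each gene, among 10076 probes on the array. The RNA came from thioglycollate-elicited macrophages, which are inflammatory cells drawn into the peritoneal cavity by a sterile irritant, of female C57BL/6 mice aged 6 weeks. There were 6 arrays and 6 groups, with 1 array in each and no replicates. Of these, 2 groups had no LPS: cells given nothing (No treatment) and cells given TSA alone. The other 4 had LPS: alone, with TSA, with GW3965, or with both. LPS is lipopolysaccharide, a bacterial cell wall component. TSA is trichostatin A, which inhibits histone deacetylases, and GW3965 activates the liver X receptors, nuclear receptors that respond to sterols. All cells were elicited in the same way and GW3965 was never given without LPS, so its effect was read only in stimulated cells. The labels give neither dose nor time, and they name no culture or animal for any array. The p-values therefore rest on how far these 6 arrays depart from additive effects of LPS, TSA and GW3965, and on spread shared across genes. That departure may be technical. It is not a spread between replicates.

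NF-kB is a family of transcription factors that work as dimers of Rel proteins. In resting cells IkB proteins, such as the products of Nfkbia and Nfkbib, hold the dimers in the cytoplasm. When LPS is sensed, a kinase complex that contains the Ikbkg product marks the IkB proteins for destruction and the freed dimers enter the nucleus, where they switch on inflammatory genes and the genes of several of their own subunits and inhibitors. A slower branch processes the Nfkb2 precursor p100 to p52, the usual partner of the Relb product. The Tnip1 product binds ubiquitin chains and works with the deubiquitinating enzyme A20 to limit signalling.

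Because members of this family are known targets of NF-kB, the 250 bases before their transcription starts are shown for the 4 genes that held a match to the kB consensus. RefSeq start sites of build GRCm38.p6 were listed for 6 of the 7 genes (the entry for Relb was missing). The consensus searched is 10 bases long, namely 3 G, a purine, 2 bases of any kind, 2 pyrimidines and 2 C, on either strand. Capitals mark the bases covered by matches, and overlapping matches are shown as 1 run. The Nfkbia sequence lies at chr12:55492648-55492897 on the minus strand, that of Nfkb2 at chr19:46304487-46304736 on the plus strand, that of Rel at chr11:23770970-23771219 on the minus strand and that of Tnip1 at chr11:54962941-54963190 on the minus strand. Each is written from 5′ to 3′ and ends at the base before the start.
Nfkbia: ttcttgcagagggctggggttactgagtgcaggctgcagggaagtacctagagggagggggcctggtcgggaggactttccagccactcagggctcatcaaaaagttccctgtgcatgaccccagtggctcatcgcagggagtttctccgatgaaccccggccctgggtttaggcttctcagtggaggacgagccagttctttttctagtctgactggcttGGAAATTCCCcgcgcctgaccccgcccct
Nfkb2: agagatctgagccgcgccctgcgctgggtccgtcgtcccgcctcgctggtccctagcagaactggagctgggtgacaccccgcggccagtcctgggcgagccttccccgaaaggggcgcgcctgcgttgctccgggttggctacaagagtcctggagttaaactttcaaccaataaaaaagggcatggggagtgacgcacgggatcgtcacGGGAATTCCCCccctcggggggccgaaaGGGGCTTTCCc
Rel: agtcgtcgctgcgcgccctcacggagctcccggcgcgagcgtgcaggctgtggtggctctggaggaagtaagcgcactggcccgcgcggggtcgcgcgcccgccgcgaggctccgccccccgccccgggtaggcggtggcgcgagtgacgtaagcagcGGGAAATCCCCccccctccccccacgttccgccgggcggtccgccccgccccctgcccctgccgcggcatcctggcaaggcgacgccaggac
Tnip1: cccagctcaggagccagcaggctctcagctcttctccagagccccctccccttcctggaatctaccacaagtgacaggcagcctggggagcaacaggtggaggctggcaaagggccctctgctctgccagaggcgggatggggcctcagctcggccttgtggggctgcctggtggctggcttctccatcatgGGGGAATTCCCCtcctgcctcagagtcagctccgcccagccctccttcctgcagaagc

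The run in the Nfkbia sequence began 29 bases before the start, and that of Rel began 92 bases before it. The Nfkb2 sequence held 2 runs, beginning 39 and 11 bases before the start, and that of Tnip1 held 1 run beginning 58 bases before it. The annotated Nfkb2 gene begins upstream of the start shown, and it has 2 further listed starts in the table, each with 1 match, at 236 and 225 bases. The Nfkb2 and Tnip1 runs share GGGAATTCCCC, chosen after the sequences were read as the longest stretch common to runs of different genes, which stood on either strand in 9 of 32851 windows. The kB consensus was found in 7.25% of these 32851 windows of the same length, each of them 250 bases before a mouse transcription start. No match was found in the single window of Nfkbib or in the 4 windows of Ikbkg, which says only that these letters are not in those windows. The matches are a description of sequence and not evidence of binding.

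With LPS, mRNA for most of these genes was more abundant. All values below are the deposited intensities, in which the median of every array lay between 0.981 and 0.987, and no value of these genes fell to the floor set on low readings. A log2 difference of 1 is a 2-fold difference. In a bulk sample, more RNA per cell and more cells that carry the RNA cannot be told apart. Of 9 macrophage markers on the array, 8 were at or above the median of every array. The summed level of the list ran from 2429 to 3451 without LPS and from 2840 to 3312 with it. Lyz1, Lyz2 and Ctss made up most of that sum. Cd14 read 29.2 with No treatment and 21.6 with TSA, and 167 to 351 on the LPS arrays. Adgre1 read 0.730 and 1.06, and 2.00 to 2.84. In limma 3 of the 9 rose with LPS and 0 fell. The summed level of 6 neutrophil markers was 23.8 and 33.1 without LPS and 51.9 to 81.7 with it. Most of that was S100a8, while Elane, Mpo and Ngp were under the median of every array. Camp read 0.172 with No treatment and 0.0692 with TSA, and 0.834 to 2.54 on the LPS arrays. Csf3r reached the median only with LPS alone, at 1.16. Of the 3 neutrophil markers tested, 2 rose with LPS in limma, a count that depends on the level filter. Markers of other cells were low but not all absent. At or above the median of every array were 1 of 7 T and NK cell markers (Cd2), 3 of 5 B cell markers (Cd79a, Cd79b and Ighm), 2 of 8 eosinophil and mast cell markers (Siglecf and Cma1) and 2 of 7 fibroblast and mesothelial markers (Pdgfra and Dcn). Under the median of every array were 5, 1, 5 and 5 of them, among these Cd3e, Blk, Kit and Col1a1. The summed levels without and with LPS were 4.14 to 4.43 and 3.24 to 4.53 for the T and NK cell list, and 9.19 to 10.1 and 10.9 to 12.7 for the B cell list. They were 7.40 to 9.17 and 6.65 to 8.73 for the eosinophil and mast cell list, and 8.81 to 13.6 and 14.8 to 16.0 for the fibroblast and mesothelial list. Dcn, which encodes the matrix proteoglycan decorin, made up most of the last list and read 5.21 with No treatment, 8.61 with TSA and 10.4 to 11.8 on the LPS arrays. The dendritic cell list had 1 gene on the array, Flt3, at 0.846 to 1.44. The part of these marker differences in the LPS results was not tested.

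Among the inhibitors, Nfkbia gave the widest LPS difference. It encodes IkBα, which enters the nucleus after resynthesis and strips NF-kB from DNA, so that it closes a negative feedback loop. Nfkbia read 14.7 with No treatment and 10.9 with TSA. On the LPS arrays it read 198 with LPS alone, 191 with TSA + LPS, 171 with GW3965 + LPS and 156 when both agents were added. All 4 LPS arrays lay far above the arrays without LPS, and neighbours in the order of the 4 LPS arrays differed by less than 0.34, the SD of a log2 difference between arrays in the fit. The difference was 13.4-fold without TSA and 17.5-fold with it. In an additive limma model of all 6 arrays LPS raised its log2 level by 3.94, with an SE of 0.24 and an adjusted p of 2.21e-10, and both pairs of arrays ran that way.

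Nfkbib encodes IkBβ, which is degraded and replaced more slowly than IkBα. It read 9.61 with No treatment, 8.68 with TSA, 24.2 with LPS and 29.7 with TSA + LPS. It read 21.8 with GW3965 + LPS and 16.4 with TSA, GW3965 and LPS together, so the 4 LPS arrays again lay above both others. LPS raised it by 1.56 (SE 0.26, limma adjusted p = 0.000174, 2 of 2 pairs), a smaller difference than that of Nfkbia, with 95% intervals of 1.01 to 2.11 and 3.44 to 4.44. The difference between these 2 genes was not tested.

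Of the subunits, Nfkb2 rose most with LPS. It read 1.46 with No treatment and 0.612 with TSA, and 16.7 with LPS alone. With GW3965 + LPS it read 9.63, with TSA + LPS 5.96, and with all 3 agents 6.61. Every LPS array was above both arrays without LPS, and among the LPS arrays the 2 with TSA were the lowest. LPS raised Nfkb2 by 3.40 (SE 0.28, limma adjusted p = 1.66e-08, 2 of 2 pairs).

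Rel encodes c-Rel, a subunit that drives interleukin-12 genes in macrophages. Rel read 0.306 with No treatment and 0.385 with TSA, both under the median of their arrays. With LPS it read 2.68 alone, 2.0 with TSA, 2.86 with GW3965 and 2.34 with both. Among the 4 LPS arrays the 2 with TSA were the lowest. Neighbours in their order differed by less than 0.43, the SD of a log2 difference between arrays for this gene. LPS raised Rel by 2.75 (SE 0.31, limma adjusted p = 1.14e-06, 2 of 2 pairs). The size depends on low readings: the rise was 1.23 with readings floored at the array median, and 1.30 on the log2(value + 1) scale.

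Relb changed less. It read 0.89 with No treatment and 0.788 with TSA, then 2.07 with LPS, 1.94 with GW3965 + LPS, 1.20 with TSA + LPS and 1.23 with all 3 agents. The LPS arrays without TSA stood apart at the top, and those with TSA were only just above the arrays without LPS. LPS raised Relb by 0.91 (SE 0.30, limma adjusted p = 0.0385, 2 of 2 pairs). That call was lost when the No treatment, TSA or LPS array was left out (adjusted p = 0.503, 0.0631 and 0.146), with no level filter (0.051), with readings floored at the array median (0.0915) and with a TSA by LPS term in the model (0.0696).

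Tnip1 read 1.81 with No treatment and 0.836 with TSA. With LPS alone it read 7.47, with GW3965 + LPS 4.33, with TSA + LPS 3.78, and with all 3 agents 2.91. The LPS arrays were all above the others, and LPS alone was the highest by more than the SD of a difference between arrays. LPS raised Tnip1 by 2.11 (SE 0.27, limma adjusted p = 6.97e-06, 2 of 2 pairs).

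Ikbkg encodes NEMO, the scaffold of the IkB kinase complex. It read 0.679 with No treatment, 0.428 with TSA, 1.16 with LPS and 0.507 with TSA + LPS. With GW3965 + LPS it read 1.01 and with all 3 agents 0.569. Only the LPS and GW3965 + LPS arrays reached the median, and the arrays with and without LPS overlapped. Its LPS difference of 0.51 did not pass (SE 0.35, limma adjusted p = 0.369, 95% interval -0.22 to 1.23, higher in 2 of 2 pairs).

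**Figure D1:**
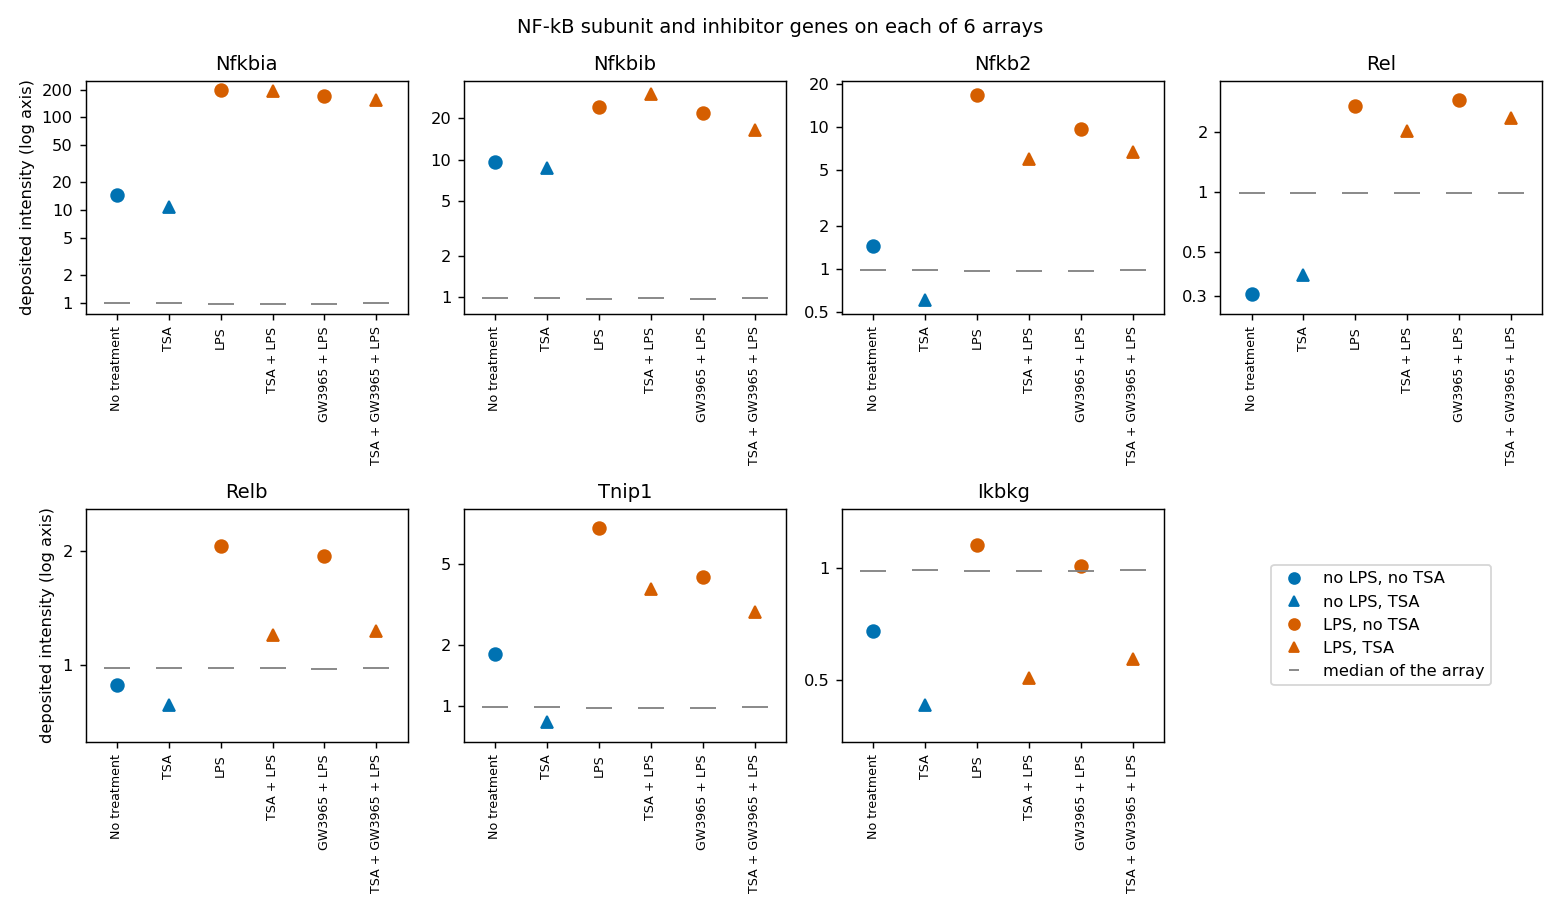
Deposited intensity (log axis) of each of the 7 genes on each of 6 arrays, 1 point per array, with circles for arrays without TSA, triangles for arrays with TSA, orange for LPS and blue for no LPS; grey dashes are the median of each array. The 4 orange points lie above both blue points in every panel but that of Ikbkg.

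Counted together, 6 of the 7 genes rose with LPS and Ikbkg did not pass, with a median effect of 2.11 against 0.03 over all 5080 genes tested. Of all genes tested, 12.3% rose with LPS by the same rule. In 6 of the 7 the lowest LPS array was above both arrays without LPS, which held for 19.4% of all genes tested. Rel and Relb entered the test only through their LPS arrays, since both were under the median elsewhere, so their direction is partly set by that filter; with no filter 5 of the 7 rose. Quantile normalization moved the median LPS effect of all genes from 0.03 to -0.11, and each of the 6 calls held under it. In single pairs of arrays, 6 of the 7 were at least 2-fold higher in LPS than in No treatment (14.0% of genes measured there), and 5 in TSA + LPS than in TSA (9.20%), where Relb was 1.53-fold higher.

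**Figure D2:**
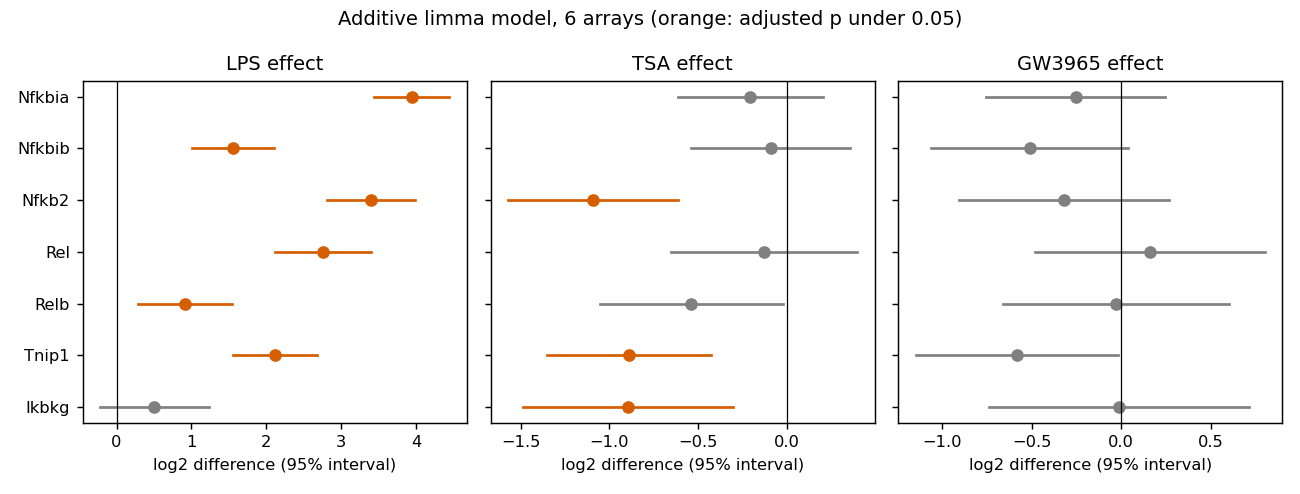
Effects of LPS, TSA and GW3965 on the 7 genes in the additive limma model of 6 arrays, as log2 differences with 95% intervals; orange marks an adjusted p under 0.05. The 6 LPS calls are all above 0, the 3 TSA calls (Nfkb2, Tnip1 and Ikbkg) are all below 0, and no GW3965 interval is orange.

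The series title asks whether TSA blocks the activation of inflammatory genes by LPS. With TSA, Nfkb2, Tnip1 and Ikbkg were called as lower, while Nfkbia, Nfkbib, Rel and Relb did not pass. Nfkb2 was 2.38-fold lower with TSA in cells without LPS, 2.8-fold lower with LPS, and 1.46-fold lower with GW3965 + LPS. Over these 3 pairs Nfkb2 fell by 1.09 on the log2 scale (SE 0.23, limma adjusted p = 0.00306, lower in 3 of 3 pairs). Leaving out any 1 of the 6 arrays kept this call, with effects from -1.37 to -0.90. Those fits were more lenient than the full fit, so a call kept in them is weak support. Without the GW3965 + LPS array, for example, the SE rose to 0.32 while the adjusted p fell. The call was lost with readings floored at the array median (0.0878) and with a TSA by LPS term (0.0714), in which the TSA effect rests on the pair without LPS alone.

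Tnip1 was 2.16-fold lower without LPS, 1.98-fold lower with LPS and 1.49-fold lower with GW3965 + LPS. It fell by 0.89 (SE 0.22, limma adjusted p = 0.00964, 3 of 3 pairs). Without the No treatment array the adjusted p was 0.0848, and without the TSA array it was 0.0788. With readings floored at the array median it was 0.0661, and with the TSA by LPS term 0.144.

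Ikbkg was 1.59-fold lower with TSA at rest, 2.28-fold lower with LPS and 1.78-fold lower with GW3965 + LPS. Neither of its readings at rest reached the median of its array. It fell by 0.90 (SE 0.28, limma adjusted p = 0.0338, 3 of 3 pairs). Leaving out any 1 of the 6 arrays ended this call (adjusted p from 0.0519 to 0.14). Ikbkg entered the test only through the LPS and GW3965 + LPS arrays, neither of which had TSA, so this direction is partly set by the level filter. Its readings lie near or under the array median, and with the floor at that median the difference was -0.09 (adjusted p = 0.623). With the TSA by LPS term the adjusted p was 0.612.

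Relb had a mean TSA difference of -0.54 and was lower in 3 of 3 pairs, but did not pass (SE 0.25, limma adjusted p = 0.139, 95% interval -1.05 to -0.02). In the pair without LPS, neither reading of Relb or of Rel reached the median of its array. For Nfkbia the mean difference was -0.20 (SE 0.19, limma adjusted p = 0.51, lower in 3 of 3 pairs), with an interval of -0.61 to 0.20. Nfkbib had -0.09 with an interval of -0.54 to 0.36 and was lower in 2 of 3 pairs. Rel had -0.13 with an interval of -0.65 to 0.40, also lower in 2 of 3. These intervals leave room for a moderate fall in each gene, so a TSA effect of that size was not detectable here. Whether the TSA effect of Nfkb2 or Tnip1 differs from that of Nfkbia was not tested.

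In all, 3 of 7 genes fell with TSA and the other 4 did not pass, against 7.54% of all genes tested that fell and a median effect of 0.01 over all genes; the median of the 7 was -0.54. Among the 4 LPS arrays, both TSA arrays were below both arrays without TSA for 5 of the 7, that is for Nfkb2, Rel, Relb, Tnip1 and Ikbkg. The same separation held for 27.4% of all genes tested. For Rel and Tnip1 the gap between the 2 sides was 0.20, within the SD of a log2 difference between arrays (0.43 and 0.38). Ikbkg reached the median only on the LPS and GW3965 + LPS arrays, so the level filter nearly fixed its separation and partly set its fall. With genes required to reach the median on at least 3 arrays, Ikbkg was not tested and 2 of 6 fell with TSA. Past 2-fold in a single pair were Nfkb2 and Tnip1 for TSA over No treatment (4.69% of genes measured there were that much lower), and Nfkb2 and Ikbkg for TSA + LPS over LPS (9.55%). In TSA + GW3965 + LPS over GW3965 + LPS, where 1.13% of genes were that much lower, none of the 7 was. On the LPS arrays the neutrophil markers summed to 51.9 and 52.3 without TSA and to 81.7 and 73.1 with it, mostly S100a8. Camp ran the other way (2.54 and 1.54 without TSA, 1.16 and 0.834 with it), as did Csf3r (1.16 and 0.591, 0.311 and 0.378). Of 3 neutrophil markers tested, 1 rose and 1 fell with TSA in limma. The macrophage markers summed to 2869 and 3046 without TSA and 3312 and 2840 with it. Among them Cd14 read 351 and 339 without TSA and 174 and 167 with it. Of 9 macrophage markers tested, 1 fell and 0 rose with TSA. In the pair without LPS, in which Nfkb2 and Tnip1 were both past 2-fold lower, the macrophage markers summed to 3451 with No treatment and 2429 with TSA, and the neutrophil markers to 23.8 and 33.1. The part of these differences in the TSA results was not tested.

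**Figure D3:**
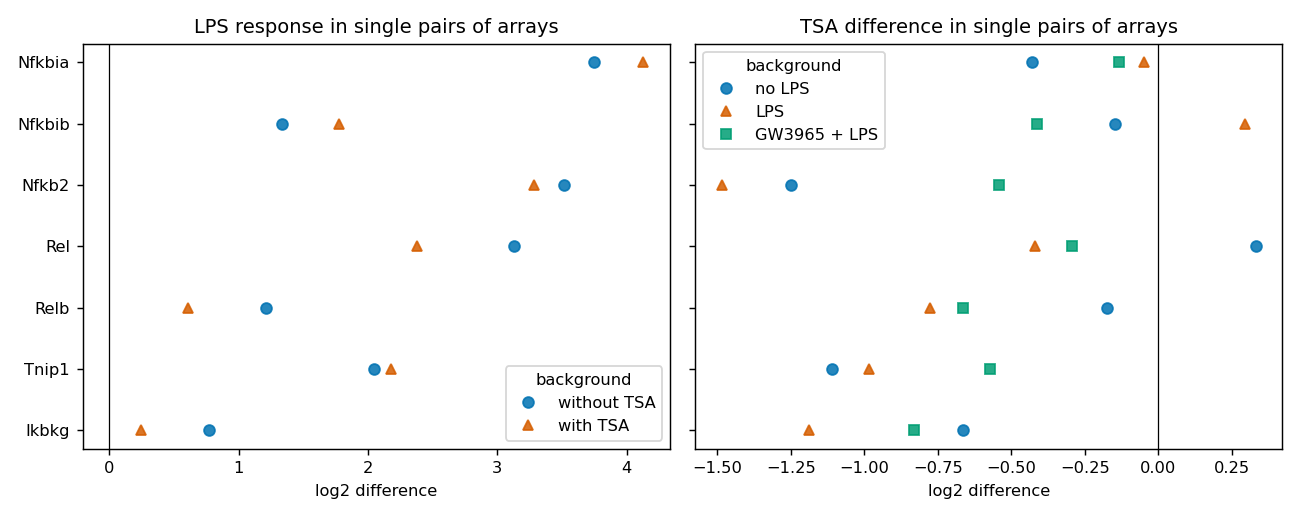
Log2 differences of the 7 genes in single pairs of arrays. The left panel shows LPS over no LPS without TSA (circles) and with TSA (triangles), and the right panel shows TSA over no TSA without LPS (circles), with LPS (triangles) and with GW3965 + LPS (squares); Nfkb2, Relb, Tnip1, Ikbkg and Nfkbia lie below 0 in all 3 TSA pairs.

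The response to LPS was also read as a fold, once in cells without TSA and once in cells with it. Nfkb2 was 11.5-fold higher with LPS in cells without TSA and 9.74-fold higher in cells with it. Tnip1 was 4.14-fold and 4.52-fold higher. For both, the 2 folds were close while the readings at rest and with LPS were lower with TSA. Both read under the median on the TSA array, so the folds with TSA depend on low readings. With readings floored at the array median, the log2 LPS difference of Nfkb2 was 3.52 without TSA and 2.59 with it. On the log2(value + 1) scale it was 2.85 and 2.11. Nfkbib was 2.52-fold and 3.43-fold higher, and Rel was 8.75-fold and 5.2-fold higher, from readings at rest that were under the median. Relb was 2.32-fold and 1.53-fold higher, and Ikbkg 1.7-fold and 1.18-fold, the last from readings that were both under the median.

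Whether TSA altered the response to LPS was tested with a TSA by LPS term, estimated from all 6 arrays. None of the 7 genes passed in limma, and 0 had an unadjusted p under 0.05, against 0.236% of all genes tested that passed. The estimates ran from -0.69 for Rel (95% interval -1.90 to 0.53) to 0.34 for Nfkbia (-0.54 to 1.21). Those of Nfkb2 and Tnip1 were 0.24 (-0.78 to 1.26) and 0.33 (-0.75 to 1.41), that of Nfkbib 0.09 (-0.80 to 0.98), that of Relb -0.55 (-1.76 to 0.67) and that of Ikbkg -0.34 (-1.67 to 0.98). In this fit a response 2-fold smaller with TSA lay outside the intervals of Nfkbia, Nfkbib, Nfkb2 and Tnip1. It lay inside those of Rel, Relb and Ikbkg. With infinite prior degrees of freedom, the intervals take their spread from all genes and not from each gene, so they cannot exclude such a response. For Nfkb2 the sign also turned: -0.45 (SE 0.63) with readings floored at the array median and -0.31 (SE 0.44) on the log2(value + 1) scale.

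With GW3965, none of the 7 genes passed in limma, and 1 of them, Tnip1, had an unadjusted p under 0.05; 0.0787% of all genes tested passed. In limma Tnip1 differed by -0.58, with an SE of 0.27, an unadjusted p of 0.0444 and an adjusted p of 0.9999, and was 1.73-fold lower with GW3965 in LPS-treated cells and 1.3-fold lower in cells that also had TSA. Nfkb2 was 1.73-fold lower with GW3965 under LPS and 1.11-fold higher where TSA was present, so its 2 pairs ran opposite ways, and its mean was -0.32 (95% interval -0.91 to 0.27). Nfkbib was lower in both pairs, 1.11-fold and 1.82-fold, with a mean of -0.51 (-1.06 to 0.04). Nfkbia had a mean of -0.25 (-0.75 to 0.25), Rel 0.16 (-0.48 to 0.80), Relb -0.03 (-0.66 to 0.60) and Ikbkg -0.01 (-0.74 to 0.71).

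The genes fell into patterns that differ in how far LPS and TSA moved them. Likeness was measured as the root mean square difference between centred log2 values over the 6 arrays, which share their labelling and scaling, and it is a description only. Within the family, Relb and Ikbkg were the most alike at 0.27, both with their highest readings on the 2 LPS arrays without TSA. Nfkbia and Rel differed by 0.55 and Nfkbia and Nfkb2 by 0.56, while Nfkbia and Ikbkg were the least alike at 1.61.

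Among 2529 other genes that varied by at least 1 log2 unit, Ehd1, Isg15 and Cflar ran closest to Nfkbia, at 0.22, 0.25 and 0.25. Cflar encodes an inhibitor of death receptor signalling, and it read 2.33 with No treatment, 40.3 with LPS and 35.2 with TSA + LPS. Herc6, Cdkn1a and Ccrl2 ran closest to Nfkb2, at 0.25, 0.27 and 0.32. Cdkn1a, the cell cycle inhibitor p21, read 1.46 with No treatment, 13.9 with LPS and 6.06 with TSA + LPS. Fgd2, Cxcl16 and Jak2 ran closest to Rel at 0.12, 0.12 and 0.13, and Kif5b, Rnaseh1 and Gtpbp2 to Relb at 0.09, 0.12 and 0.13. Adar, Ext1 and Ikbke ran closest to Tnip1 at 0.21, 0.21 and 0.23. Ikbke, which encodes a kinase related to the IkB kinases, read 14.9 with No treatment, 8.67 with TSA, 46.5 with LPS and 29.5 with TSA + LPS. Pde6a, Mfap5 and Penk ran closest to Nfkbib at 0.11, 0.16 and 0.17, and Rwdd2b, Cpsf2 and Rpia to Ikbkg at 0.07, 0.11 and 0.11.

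The rest of the pathway was read from lists of genes, some of which stand in 2 lists, and each count is from the same limma fit over 5080 genes. Of all genes tested, 7.11% fell with LPS and 11.0% rose with TSA. The level filter admits a gene through its LPS arrays alone, so the counts of tested genes that rose with LPS depend on it. Among 2 tested genes of the other Rel and IkB proteins, out of 5 on the array, Nfkbil1 rose with LPS by 1.40 (SE 0.28, adjusted p = 0.00103), and with no level filter 3 of the 5 rose. Of 7 tested kinases, out of 11 on the array, 4 rose with LPS, namely Ikbke by 1.70, Tbk1 by 1.35, Map3k8 by 1.11 and Tab2 by 1.04, and 1 fell with TSA, the receptor-associated kinase Irak1, by 1.02 (SE 0.21, adjusted p = 0.00258). With no level filter 4 of the 11 rose, and the list's median LPS effect was 0.15 in place of 1.04. Without the No treatment or the LPS array, and with readings floored at the array median, 2 of the 7 kinases rose. The Irak1 call was lost with the TSA by LPS term. Of 10 tested adaptors, out of 11 on the array, 6 rose with LPS (7 of 11 with no level filter), led by Traf1 at 4.82, Azi2 at 1.95, Tank at 1.72 and Myd88 at 1.67. With TSA 3 of the 10 adaptors fell, Traf2 by 1.23, Myd88, the adaptor of most Toll-like receptors, by 0.96 and Sqstm1 by 0.68. Without the LPS or the TSA + LPS array 1 adaptor fell, the Sqstm1 call was lost without the GW3965 + LPS or the TSA + GW3965 + LPS array, and the 3 calls were lost with readings floored at the array median and with the TSA by LPS term.

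Of 16 tested ubiquitin ligases, their partners and removers, out of 18 on the array, 6 rose with LPS (6 of 18 with no level filter), among them Trim30a by 3.39, Peli1 by 2.57, Birc3 by 2.38 and Birc2 by 1.22. Without the No treatment array 3 rose. With TSA, Ube2v1 and Rbck1 fell by 0.83 and 0.76, and the deubiquitinase Cyld and the ligase subunit Skp1 rose by 0.68 and 0.67, but the calls of Cyld and Skp1 were lost after quantile normalization and cyclic loess, and that of Ube2v1 after cyclic loess. None of these 4 genes was called without the No treatment array, without the TSA array, with readings floored at the array median or with the TSA by LPS term. Without the GW3965 + LPS or the TSA + GW3965 + LPS array neither rise was called, and without the LPS array Ube2v1 was not. Of 6 tested inhibitors other than the members, out of 9 on the array, Socs1 and the mRNA-destabilizing Zfp36 rose with LPS by 3.73 and 1.54, and Sigirr, a receptor that dampens interleukin-1 and Toll-like receptor signalling, fell by 2.08. With TSA, Zfp36 and Socs1 fell by 0.88 and 0.79, and Sigirr and Klf4 rose by 0.92 and 0.67. Without the No treatment or the TSA array neither rise was called. Without the LPS or the TSA + LPS array Zfp36 was not called, and without the GW3965 + LPS or the TSA + GW3965 + LPS array neither Socs1 nor Klf4 was. These 4 calls were lost with readings floored at the array median and with the TSA by LPS term.

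Of 30 tested NF-kB target genes, out of 34 on the array, 28 rose with LPS, and the median of the 30 was 2.59. With no level filter 27 of the 34 rose, with a median of 2.35. Il1b, Il6, Cxcl10 and Cxcl1 led, at 10.8, 7.83, 7.67 and 6.89. With TSA, 6 of the 30 fell and 1 rose, with a median of -0.28. Tnf fell by 1.24, Il6 by 1.22 and Il1a by 0.89, and the costimulatory Cd80 rose by 0.95. Tnf was at the floor on 1 of the 2 arrays without LPS, so the size of its difference rests partly on that floor. The number that fell was 10 without the No treatment or the TSA array, 3 without any 1 of the 4 LPS arrays, 4 in the fit without an intensity trend and 1 with the TSA by LPS term, under which the Il6 effect turned positive. With readings floored at the array median every fall was lost. The Cd80 rise was not called without the GW3965 + LPS or the TSA + GW3965 + LPS array or with the TSA by LPS term. Of 8 tested acetylation and corepressor enzymes, out of 11 on the array, 0 were called for LPS by limma, with 2 at an unadjusted p under 0.05. Without the LPS array Gps2 was called as lower with LPS, by -1.21 in limma (adjusted p = 0.0128). With TSA, Gps2, a subunit of a corepressor complex, fell by 1.10, and the deacetylases Sirt1 and Hdac6 rose by 0.83 and 0.77. All 3 calls were lost with the TSA by LPS term, and those of Gps2 and Sirt1 with readings floored at the array median. Neither rise was called without the TSA, the GW3965 + LPS or the TSA + GW3965 + LPS array, and Hdac6 was not called without the No treatment array.

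**Figure D4:**
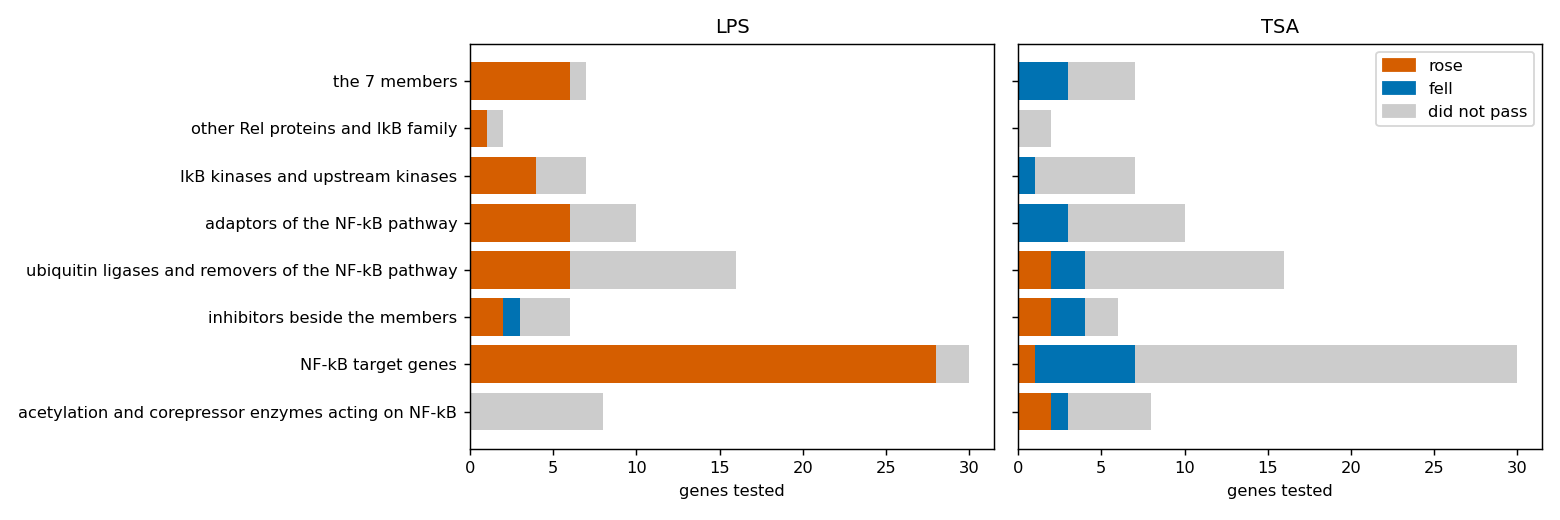
Number of tested genes in each pathway list that rose, fell or did not pass (adjusted p of 0.05, limma) for LPS on the left and TSA on the right. The 7 family genes show 6 rises with LPS and 3 falls with TSA, and the 30 target genes show 28 rises with LPS and 6 falls and 1 rise with TSA.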

How the data were processed

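The deposited table holds one intensity per probe and array on a linear scale. Per the labels' protocols, 0.5 ug of total RNA was primed with oligo-dT and amplified with biotinylated UTP. The scanner, background correction and scaling are not given in the sources used here. That the authors scaled the arrays is inferred from medians of 0.981 to 0.987. Each array holds 19 to 28 readings of 0 or less, from which a background subtraction is inferred.

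Symbols came from the platform annotation: 8983 probes carried 1 symbol, 1 several and 1092 none. The 7 genes and the pathway lists were chosen with earlier results of these data known. Each array was floored at its 25th percentile (0.198 to 0.245) and log2-transformed. The brightest probe stood for each of the 138 genes with more than 1, and a gene was tested when at least 1 array reached its median, which left 5080 of 8841. An additive model with terms for LPS, TSA and GW3965 was fitted with limma 3.58.1 in R 4.3.3 (trended empirical Bayes, 2 residual and 16.9 prior degrees of freedom), so each effect is the mean over the pairs of arrays that differ in that agent. Where agents modify each other's effects, that enters the residual. A second fit added a TSA by LPS term, with 1 residual degree of freedom and infinite prior degrees of freedom. Genes called had a Benjamini-Hochberg adjusted p under 0.05 over all genes tested, two-sided. All intervals are 95% intervals from these fits. Single pairs have no replicate check. There a gene counted as measured if its higher reading was at or above that array's median, and the threshold was 2-fold. The fit was also run on simulated data with additive effects and normal noise at the spread of the fit itself. Such data cannot show how the fit fares with non-additive effects or without replicates. Plots used Python 3.11.15 and matplotlib 3.10.9.

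Named genes are the 7 members; in each pathway list the genes called for LPS or TSA, cut to the 4 with the largest effect where over 5 were called; and for each member the 3 genes with the smallest root mean square difference of centred log2 values over 6 arrays. Marker lists for macrophages, neutrophils, T and NK cells, B cells, eosinophils and mast cells, fibroblasts and mesothelium, and dendritic cells were read as summed levels. Alternatives varied the scaling, floor, level filter, probe choice, prior variance and model terms, and left out each array in turn. The number of arrays limits the precision.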

Additional observations from a re-analysis of the deposited data

How the results depend on the processing

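The count of family genes that LPS raised was 6 in the reported fit and 5 or 6 under every alternative run, and leaving out 1 array gave 5 to 6. The effect of LPS on Nfkbia, Nfkbib, Nfkb2, Rel and Tnip1 was called under every alternative run, each array left out in turn included, and the count of 5 came from the loss of Relb. Calls kept with an array left out or with no level filter are weak support, since those fits were more lenient. For Nfkbia the SE was 0.24 in the reported fit, 0.25 with no level filter and 0.28 without the LPS array. Yet the adjusted p was smaller in the last 2. The count of family genes that TSA lowered was 3. With genes required to reach the median on at least 3 arrays it was 2 of 6, and Ikbkg was then not tested. It was 0 with readings floored at the array median, where the cause was not tested, and 0 with the TSA by LPS term, where the TSA effect rests on 1 pair of arrays. Leaving out 1 array gave 1 to 2, with 1 when the No treatment or the TSA array was missing. Of 49 differences in single pairs 44 were measured, that is with the higher reading at or above its array's median, and of those 15 were past 2-fold and 24 past 1.5-fold. Among the 7 genes no call for GW3965 or for the TSA by LPS term was made under any alternative run. Over all genes, 626 rose and 361 fell with LPS, against 543 and 557 after quantile normalization and 445 and 205 with readings floored at the array median. With TSA 557 rose and 383 fell, against 241 and 100 with that floor and 132 and 63 with the TSA by LPS term. The TSA by LPS term itself was called for 12 genes, and for 0 with that floor. It could not be refitted with an array left out. Without the No treatment or the TSA array the term cannot be estimated, and without any other array no residual degree of freedom remains. The additive fit already compares arrays matched in the other agents. A further block by replicate could not be fitted, because each group has 1 array.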
